A study of Macaca fascicularis and Macaca mulatta with 24 samples.

Results

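RNA for the proteins that form the neurofilaments and the neuronal microtubule lattice was followed in monkey cortex after occlusion of the middle cerebral artery. Of 9 genes named (NEFL, NEFM, NEFH, INA, MAP2, MAPT, MAP1B, TUBB3 and STMN2), 8 were read by 13 probes whose symbol in the deposited annotation matched exactly, among 15761 genes tested. INA, which encodes alpha-internexin, matched no probe by that rule. All 13 probes passed the filter on dim probes, so no matched gene was lost to it.

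The samples were cortical biopsies of cynomolgus macaques with a right-sided occlusion, so the right hemisphere is the ischemic one and the left the comparison side. Every animal had the occlusion and an intravenous dose 5 min later, either placebo or TatNR2B9c at 2.6 mg/kg, a cell-penetrating peptide that uncouples NMDA receptors from the scaffold protein PSD-95. Placebo animals were sampled at 1 h or at 6 h, as were TatNR2B9c animals, with 3 animals in each set and 1 array for each hemisphere of an animal. The resulting 8 groups of 3 arrays are placebo left 1 h, placebo right 1 h, placebo left 6 h, placebo right 6 h, TatNR2B9c left 1 h, TatNR2B9c right 1 h, TatNR2B9c left 6 h and TatNR2B9c right 6 h. There was no animal without an occlusion, and the labels used here give no age. Each value is a log2 ratio of tissue RNA, labelled with Cy5, over a common rhesus macaque reference RNA, labelled with Cy3, so 0 means equal signal and 1 means a doubling. Differences passed the test when limma's moderated test gave a Benjamini-Hochberg adjusted p under 0.05 over all genes.

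Neurofilaments are the intermediate filaments of neurons. They are copolymers of a light (NEFL), a medium (NEFM) and a heavy (NEFH) chain with alpha-internexin, they fill large axons and set their calibre, and their subunits leak into body fluids when axons are damaged. Microtubules are built of tubulin, of which TUBB3 is the neuron-specific beta form. They are stabilised by MAP2 in dendrites and by tau (MAPT) in axons, while MAP1B binds growing microtubules and STMN2, a stathmin of growth cones, takes up free tubulin. MAP2, tau and neurofilament proteins are known substrates of calpain, a protease activated by calcium in ischemic neurons. The arrays measured RNA and say nothing of the proteins.

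The probes are 60 bases long, and their place in the transcript decides what the values read. In rheMac2 coordinates of the deposited annotation, NEFL was read at chr8:25076430-25076489 on the minus strand, NEFM at chr8:25041125-25041184, NEFH at chr10:73327922-73327981, MAP2 at chr12:73520875-73520934, MAPT at chr16:56651017-56651076, MAP1B at chr6:68357072-68357131, TUBB3 at chr20:88059792-88059851 and STMN2 at chr8:82095859-82095918, all but NEFL on the plus strand. NEFL and MAP1B each had 2 further probes and TUBB3 had 1, and a gene was read by its brightest probe. Gene models were not used here, so exon, intron or untranslated region is not given. The first 30 bases are shown for the probes used for MAP2, MAPT, NEFH and MAP1B and for both TUBB3 probes. These were taken as sites outside chromosome 8, so NEFL, NEFM and STMN2 are not shown, and the further MAP1B probes are left out. They run 5′ to 3′ as deposited, in lower case, with no base marked.
MAP2: ggccatttgtgatacttcctcatatacttg
MAPT: agggctaaccagttctctttgtaaggactt
NEFH: tgaattatgccagggcgcactttccactgg
MAP1B: gaggtaaaagagccaagttcaaagaaccct
TUBB3 (brighter probe): ctgggccatgtgtgtgctgctcctgtctgt
TUBB3 (dimmer probe): aagtgactttgtgaccagaaagcttcagct
The MAP2 probe has the lowest share of G and C among the 13 (31.7%) and the NEFL probe used has the highest (58.3%).

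Every probe that read a gene was well above background in the tissue channel on all 24 arrays, and none was saturated. The dimmer TUBB3 probe, at chr20:88044225-88044284, was well above background on 11 arrays in Cy5 and on 1 in Cy3, and its ratios lay between -0.29 and 1.12. Placebo at 1 h, placebo at 6 h and TatNR2B9c each had a software version of their own, as well as slides and scan days of their own, so treatment, and time within placebo, cannot be told apart from these batches. In placebo at 6 h the sides were not balanced over scan days either, with 3 right arrays and 1 left array on the same day. On 3 arrays the reference channel was weak: placebo left 1 h replicates 1 and 3 and placebo right 1 h replicate 3 had 15.7 to 22.2% of probes well above background in Cy3, against 50.7 to 99.3% on the other 21. The tissue label held, with 17 of 19 measured neuronal markers well above background in Cy5 on all 24 arrays.

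All 8 genes had mean ratios above 0 in every group, except MAPT in placebo left 1 h. The lowest group mean of each gene fell in the placebo 1 h groups. The highest fell in the placebo 6 h groups for 7 genes and in TatNR2B9c right 6 h for MAP2. For NEFL the means were 0.42 ± 0.41 (SD, n = 3) in placebo left 1 h, 0.65 ± 0.37 in placebo right 1 h, 3.19 ± 0.16 in placebo left 6 h and 3.68 ± 0.61 in placebo right 6 h. In TatNR2B9c tissue NEFL stood at 2.03 ± 0.31 left and 1.62 ± 0.47 right at 1 h, and at 2.91 ± 0.66 left and 3.12 ± 0.55 right at 6 h. STMN2 ran from 1.18 ± 1.31 in placebo left 1 h to 4.31 ± 0.29 in placebo right 6 h, and TUBB3 from 0.92 ± 0.73 to 3.08 ± 0.15 in the same groups.

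**Figure D1:**
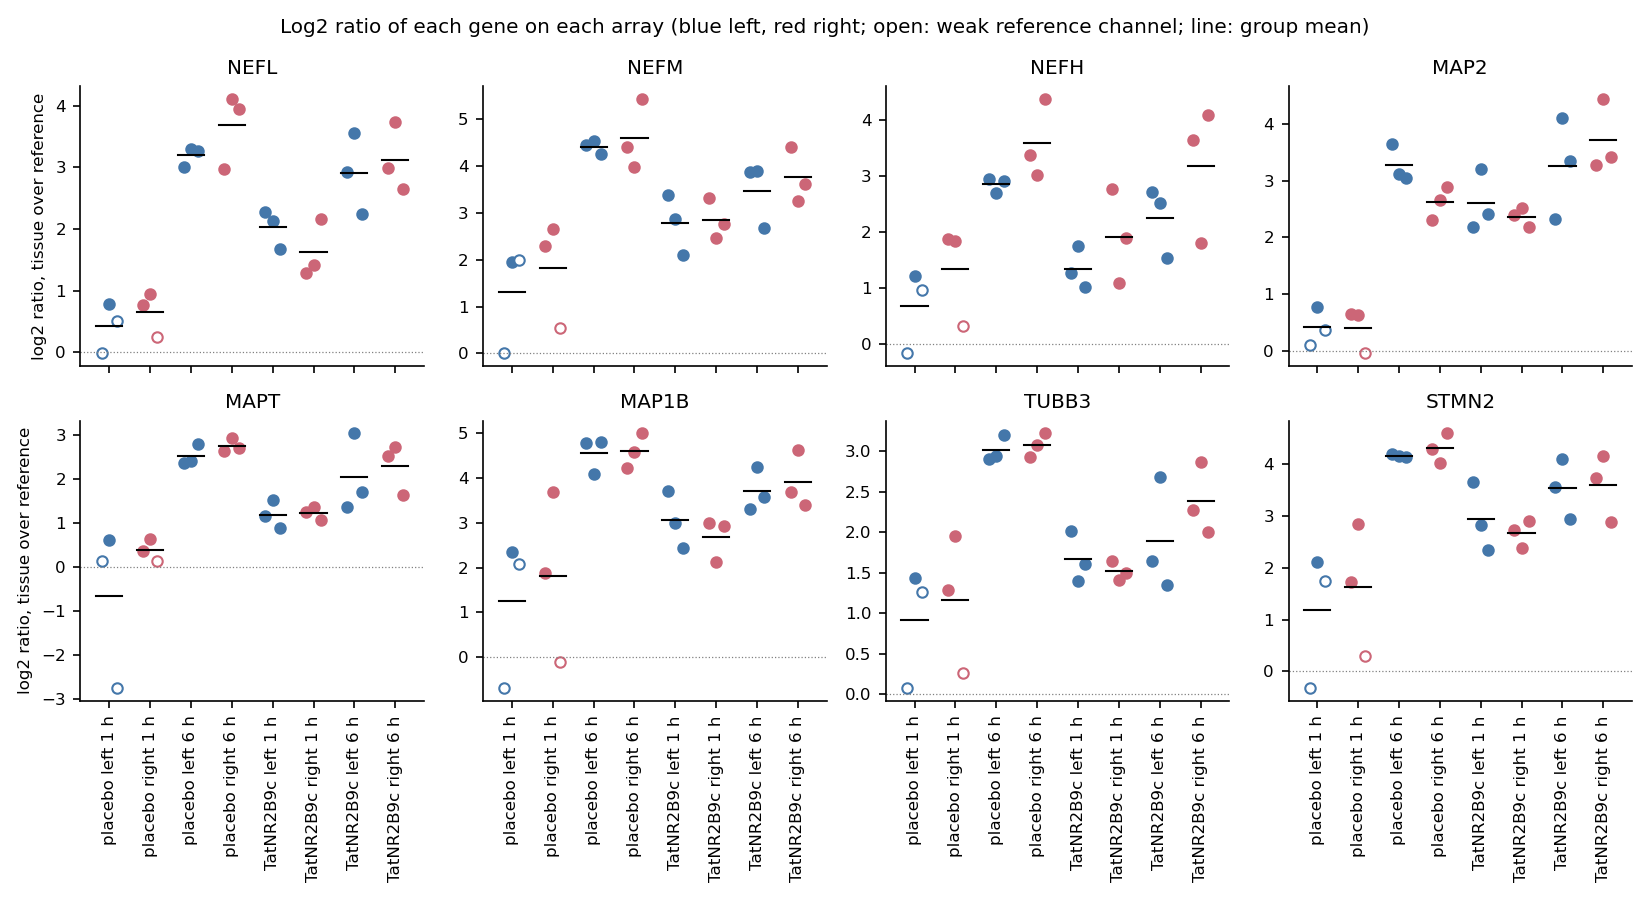
Log2 ratio of tissue over reference (y axis) for the 8 genes on each of the 24 arrays, by group (x axis), with left arrays in blue, right arrays in red, open circles for the 3 arrays with a weak reference channel and a line at the group mean. Placebo 6 h arrays lie above placebo 1 h arrays for every gene, and MAPT has 1 value at -2.76 in placebo left 1 h.

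The arrays with a weak reference stood low. On placebo left 1 h replicate 1 the 8 genes had a median of -0.01 and on placebo right 1 h replicate 3 a median of 0.25, while the other placebo 1 h arrays had medians of 1.11 to 1.89. The SD of the ratios over all 15761 genes was also smallest on these arrays, at 0.36 and 0.65, against 0.81 to 1.67 elsewhere. Placebo left 1 h replicate 3 had a median of 1.11 but held the MAPT value of -2.76, where replicates 1 and 2 of the group read 0.14 and 0.61. The counts and medians of comparisons that use placebo 1 h arrays are therefore given with and without the 3 arrays. The reference signal of the MAP2 probe was not well above background on any of the 6 placebo 1 h arrays, so MAP2 has no measured reference there and its differences from that time have no settled size. For NEFL it was well above background on 1 of 3 arrays on the left and 2 of 3 on the right, for MAPT on 1 of 3 on each side, and for MAP1B and STMN2 on all.

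The first question was whether the ischemic side differed from the other side. None of the 8 genes passed the test in placebo at 1 h, placebo at 6 h, TatNR2B9c at 1 h or TatNR2B9c at 6 h, where limma called 0% of all genes in each. No unadjusted p of the 8 was under 0.05 in these comparisons. The median right minus left difference of the 8 genes was 0.48 in placebo at 1 h, 0.17 in placebo at 6 h, -0.20 in TatNR2B9c at 1 h and 0.27 in TatNR2B9c at 6 h, against 0.01, -0.05, -0.03 and 0.07 over all genes. Leaving out 1 array moved the placebo 1 h median between -0.15 (without placebo left 1 h replicate 1) and 1.14 (without placebo right 1 h replicate 3), and it was -0.02 without placebo right 1 h replicate 2 and 0.87 without placebo left 1 h replicate 2. It ran from -0.01 (without placebo right 6 h replicate 3) to 0.26 in placebo at 6 h. In TatNR2B9c it ran from -0.30 to 0.02 (without TatNR2B9c left 1 h replicate 1) at 1 h, and from 0.06 (without TatNR2B9c right 6 h replicate 2) to 0.65 (without TatNR2B9c left 6 h replicate 2) at 6 h. Without the 3 weak-reference arrays the placebo 1 h median was 0.18, and MAPT there went from 1.05 to -0.11. In a bulk biopsy fewer neurons and less RNA in each neuron cannot be told apart.

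In the mean over the 4 sets the heavy neurofilament chain showed the widest gap between the sides. In placebo at 1 h MAPT differed more, by 1.05 against 0.67 for NEFH. On the left, NEFH read -0.17, 1.22 and 0.96 in placebo at 1 h, 2.94, 2.70 and 2.91 in placebo at 6 h, 1.27, 1.75 and 1.02 in TatNR2B9c at 1 h, and 2.71, 2.52 and 1.53 in TatNR2B9c at 6 h. On the right it read 1.87, 1.84 and 0.32, then 3.37, 3.01 and 4.38, then 2.77, 1.09 and 1.89, then 3.64, 1.81 and 4.09. The sides overlapped except in placebo at 6 h, where each right value exceeded each left value, as for 4.37% of all genes. In that set side and scan day are partly tied. Within the day that held 3 right arrays and 1 left array NEFH was 0.89 higher on the right. Over the 4 sets NEFH was 0.73 higher on the right (SE 0.29, 95% confidence interval 0.12 to 1.33, 1.66-fold), above 0 in 9 of 12 animals. That did not pass over all genes (unadjusted p = 0.0211, limma adjusted p = 0.888), and 6.31% of all genes were above 0 in at least 9 animals. Without the 3 weak-reference arrays NEFH was at 0.72, and over 39 alternatives it ran from 0.59 to 0.90. None of the 8 passed in this mean over the sets, nor did any of the 15761 genes (0%).

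**Figure D2:**
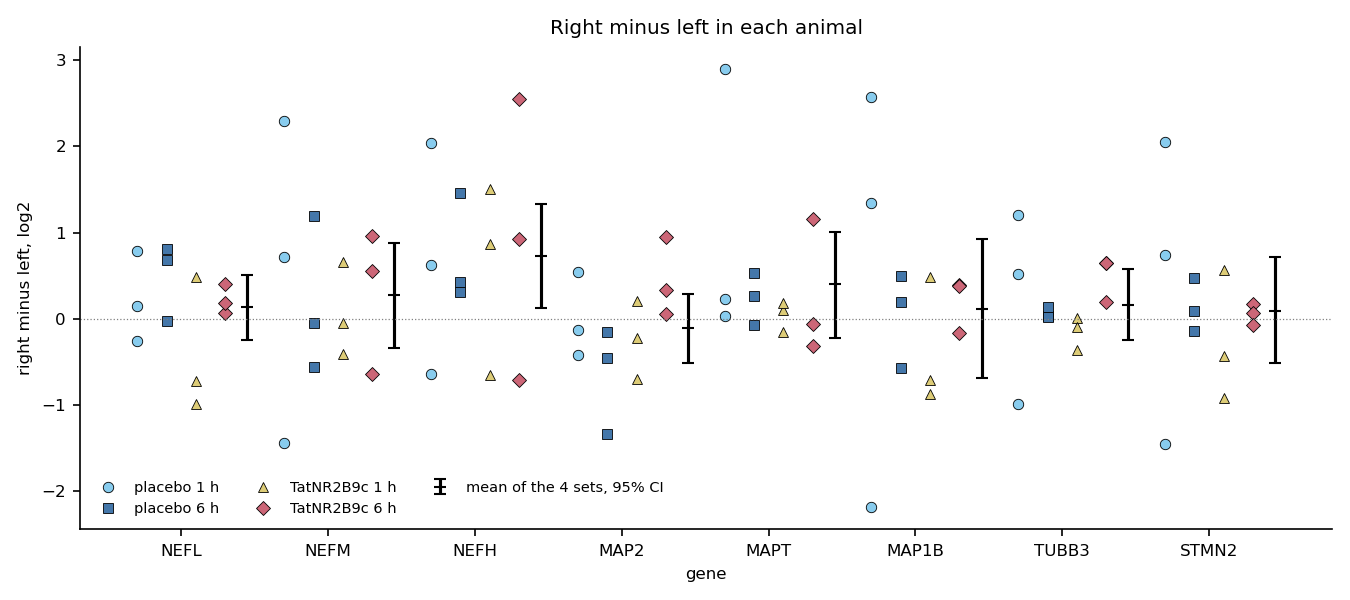
Right minus left difference in log2 ratio (y axis) in each of the 12 animals for the 8 genes (x axis), with symbols by treatment and time and, at the right of each gene, the mean of the 4 sets with its 95% confidence interval. NEFH is above 0 in 9 of 12 animals, and MAP2 is below 0 in the 3 placebo 6 h animals and above 0 in the 3 TatNR2B9c 6 h animals.

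Markers of myelin-forming cells lay higher on the right in the same arrays. Of 12 oligodendrocyte markers, 11 had a right minus left mean above 0 over the 4 sets, with a median of 0.45, and 0 passed. Their mean ratio was 0.31 left and 0.64 right in placebo at 1 h, 0.44 and 0.94 in TatNR2B9c at 1 h, and 0.79 and 1.55 in TatNR2B9c at 6 h. In placebo at 6 h, where NEFH did not overlap, it was 1.67 on each side. Of 19 neuronal markers 18 were above 0, with a median of 0.21, and 5 of 5 meningeal markers were below 0, with a median of -0.40. Of 10 astrocyte markers 9 were above 0, with a median of 0.31, and in placebo at 6 h their mean ratio was 0.98 left and 1.40 right. The part of these markers in the NEFH difference was not tested.

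The other genes had smaller differences over the 4 sets. The light and medium chains NEFL and NEFM were at 0.13 (95% confidence interval -0.25 to 0.51) and 0.27 (-0.34 to 0.88), and TUBB3 was at 0.16 (-0.25 to 0.58) with 9 of 12 animals above 0. STMN2 was at 0.09 (-0.52 to 0.71), MAP1B at 0.11 (-0.69 to 0.92) and MAPT at 0.40 (-0.22 to 1.01). The MAPT value leans on placebo animal 1 h number 3, in which the difference was 2.90, while the other 2 animals of that set gave 0.23 and 0.03, and without the weak-reference arrays it was 0.11. MAP2 was the only one of the 8 with a negative mean, -0.11 (-0.52 to 0.29), with 5 of 12 animals above 0 and values from -0.34 to 0.28 over the alternatives. For this mean over the sets, with loess, the intervals of all 8 exclude a halving on the ischemic side. Those of NEFL, NEFM, MAP2, TUBB3, MAP1B and STMN2 also exclude a doubling, which those of NEFH and MAPT do not. The MAP2 interval rests in part on placebo at 1 h, where MAP2 had no measured reference, so its limits are less sure. Within single sets a halving is not excluded for each gene. In placebo at 6 h the interval ran from -1.46 to 0.16 for MAP2 and from -1.57 to 1.65 for MAP1B. The further NEFL probes gave 0.39 and 0.45, and the further MAP1B probes 0.14 and 0.37, with no call.

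MAP2, the dendritic stabiliser, had right minus left values of opposite sign in placebo and TatNR2B9c at 6 h, and neither passed. In placebo it read 3.65, 3.12 and 3.05 on the left and 2.31, 2.66 and 2.89 on the right, and each right value lay below each left value, as for 8.41% of all genes. Within the scan day that held 3 right arrays and 1 left array of this set, MAP2 differed by -0.49. In TatNR2B9c it read 2.32, 4.11 and 3.35 on the left and 3.28, 4.44 and 3.41 on the right, overlapping as groups but higher on the right in each animal, by 0.95, 0.33 and 0.05. The placebo animals had differences of -1.34, -0.46 and -0.16. Over 21 alternatives the MAP2 difference ran from -0.80 to 0.64 in placebo and from -0.02 to 0.87 in TatNR2B9c. In placebo it turned above 0 in the scanner software's processed ratios (0.63) and in the series' value table (0.64). The difference between the treatments, 1.1 (SE 0.54, 95% confidence interval -0.05 to 2.24), did not pass (unadjusted p = 0.0588, limma adjusted p = 0.931). In the interaction of treatment and side none of the 8 genes passed at 1 h or at 6 h, as for all genes (0% at each time).

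The second question was how tissue at 6 h differed from tissue at 1 h. With loess normalisation all 8 genes in placebo were higher at 6 h on the right, by 1.91 (TUBB3) to 3.03 (NEFL), and all 8 passed, where limma called 40.7% of all genes and 21.3% as higher. On the left all 8 passed as well, from 2.09 (TUBB3) to 3.31 (MAP1B), where 54.0% of all genes were called and 30.6% as higher. For every gene each 6 h array lay above each 1 h array of the same side, as for 31.8% of all genes on the right and 37.0% on the left. NEFL rose by 3.03 on the right (SE 0.36, 8.17-fold, limma adjusted p = 1.3e-05), NEFM by 2.77 (SE 0.58, 6.81-fold) and NEFH by 2.25 (SE 0.58, 4.75-fold). On the left tau (MAPT) rose by 3.20 (SE 0.59), MAP1B by 3.31 (SE 0.77), MAP2 by 2.85 (SE 0.39) and STMN2 by 2.98 (SE 0.59). The dimmer TUBB3 probe gave 0.39 on the right and 0.46 on the left, and neither passed. The further NEFL and MAP1B probes all passed, from 2.67 to 3.45 on the right and from 2.72 to 3.17 on the left. The median of the 8 genes was 2.53 on the right and 2.92 on the left, against 0.04 and 0.11 over all genes.

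Neuronal markers and the spread of the arrays moved with that rise. All 19 neuronal markers were higher at 6 h on either side, with medians of 2.12 and 2.41, and their mean ratio per array ran from 0.02 to 1.94 at 1 h and from 3.23 to 3.65 at 6 h. Without the 3 arrays with a weak reference the median of the 8 genes was 2.00 on the right with 8 passing and 2.13 on the left with 7 passing (all but NEFH). Leaving out placebo right 1 h replicate 3 alone ended the MAP1B call on the right, where the difference was 1.82. Under centring of each array on its median in place of loess the direction turned, with medians of -0.85 and -1.33 and 5 of 8 genes below 0 on each side. Then 3 passed on the right, all higher (NEFL, MAP2 and MAPT), and 6 on the left, 2 higher (MAP2 and MAPT) and 4 lower (NEFH, MAP1B, TUBB3 and STMN2), where all genes shifted to -0.80 and -0.89. The shares of all genes called under median centring and without the weak-reference arrays are not given, so these counts are descriptions. In the tissue channel alone the median rise was 0.63 on the right and 0.33 on the left, while the reference channel, which held the same RNA throughout, gave -0.62 and -1.20 for these genes, and the part of the batch was not tested.

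**Figure D3:**
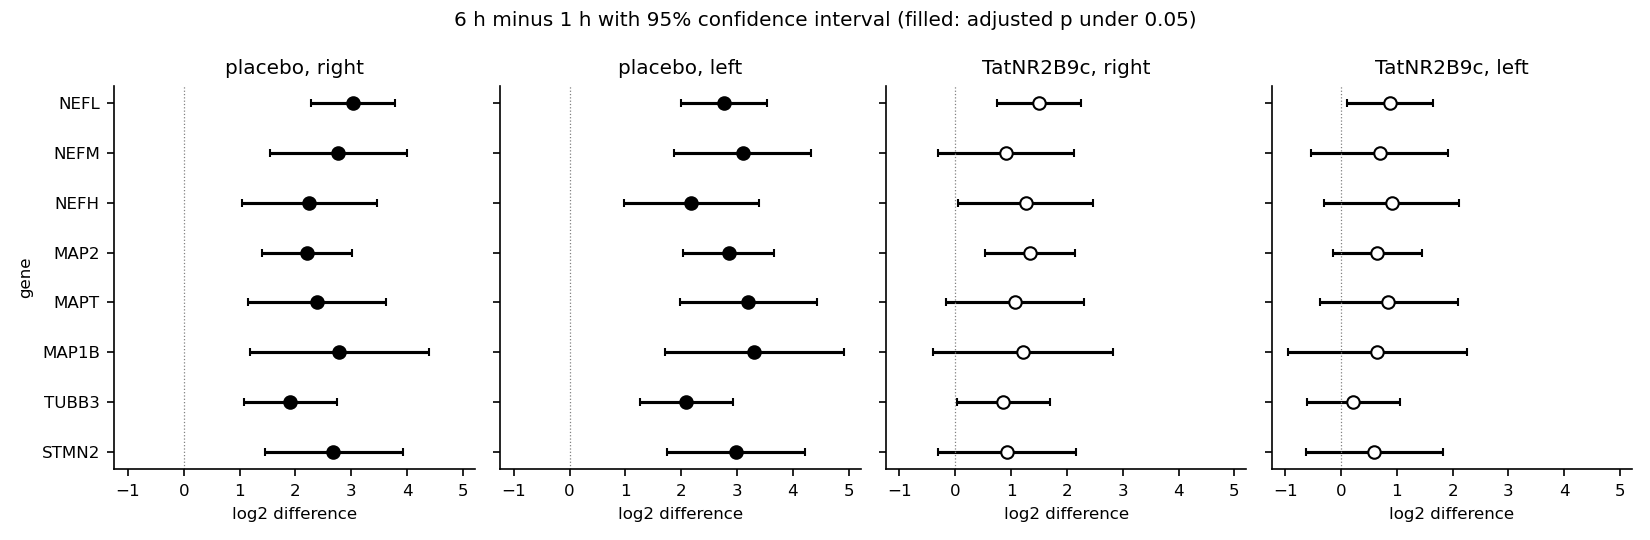
Log2 difference of 6 h minus 1 h (x axis) with its 95% confidence interval for the 8 genes (y axis) in placebo right, placebo left, TatNR2B9c right and TatNR2B9c left, with filled circles where the adjusted p is under 0.05. With loess normalisation the placebo differences run from 1.91 to 3.31 and all pass, though 5 of 8 turn below 0 on each side under median centring, and the TatNR2B9c differences run from 0.22 to 1.5 and none passes (3 of 8 on the right and 5 of 8 on the left are below 0 under median centring).

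In TatNR2B9c tissue, where both times were read with 1 software version, none of the 8 genes passed. Replicates 1 and 2 at 6 h had a slide and a scan day without any 1 h array, and only replicate 3 shared a slide with 1 h arrays. Time in TatNR2B9c tissue is therefore partly tied to slide and scan day. On the right limma called 0.121% of all genes and on the left 0%. All 8 differences were above 0 on each side with loess, while median centring put 3 of 8 below 0 on the right and 5 of 8 on the left, and equal spread 5 of 8 on the left. With loess they ran from 0.86 (TUBB3) to 1.5 (NEFL) on the right and from 0.22 (TUBB3) to 0.91 (NEFH) on the left. The medians were 1.14 and 0.67, against 0.04 and -0.02 over all genes. At an unadjusted p under 0.05, limma gave 4 genes on the right (NEFL, NEFH, MAP2 and TUBB3) and 1 on the left (NEFL), as for 19.4% and 16% of all genes. In the tissue channel alone the medians were -0.10 on the right and 0.14 on the left, and in the reference channel -0.75 and -0.44. Of 19 neuronal markers 19 lay above 0 on the right (median 1.07) and 18 on the left (median 0.75), and their part was not tested.

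NEFL came closest. On the right it read 1.29, 1.41 and 2.16 at 1 h and 2.98, 3.73 and 2.65 at 6 h, with no overlap, as for 17.1% of all genes in that direction, a difference of 1.5 (SE 0.36, 95% confidence interval 0.74 to 2.26, limma adjusted p = 0.0706). The other NEFL probes gave 1.57 and 1.42. On the left NEFL read 2.28, 2.13 and 1.68 at 1 h and 2.92, 3.55 and 2.24 at 6 h, a difference of 0.88 (SE 0.36, limma adjusted p = 0.262). MAP2 on the right read 2.40, 2.51 and 2.19 at 1 h and 3.28, 4.44 and 3.41 at 6 h, a difference of 1.34 (SE 0.39, limma adjusted p = 0.0987). Slide 9 held animal number 3 of both times, and within it the median difference of the 8 genes was 0.54 on the right and 0.59 on the left. When slide entered the model, these medians became 0.82 and 0.55, with no gene passing. Leaving out TatNR2B9c right 6 h replicate 3 let NEFL pass on the right and raised the number of all genes called from 19 to 303.

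The third question was whether tissue of TatNR2B9c animals differed from that of placebo animals on the same side at the same time. At 1 h all 8 differences lay above 0 on each side with loess normalisation, while median centring put 6 of 8 below 0 on the right and 7 of 8 on the left. MAP2 passed on the right, where 1.59% of all genes were called and 0.368% as higher, and MAP2 and NEFL passed on the left, where 0.888% were called and 0.85% as higher. The median of the 8 was 0.92 on the right and 1.68 on the left, against 0.02 and 0.02 over all genes. Without the 3 weak-reference arrays these medians were 0.38 and 0.77, and in the tissue channel alone 0.04 and -0.36. Leaving out 1 array gave 0.38 (without placebo right 1 h replicate 3) to 1.28 on the right and 0.92 (without placebo left 1 h replicate 1) to 2.01 on the left. Under median centring 6 passed on the right, MAP2 higher and NEFM, NEFH, MAP1B, TUBB3 and STMN2 lower, and 5 on the left, all lower, where 67.2% and 77.2% of all genes were called. These comparisons share the placebo 1 h arrays with the time comparisons above, so a low placebo 1 h value enters both.

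MAP2 read 0.65, 0.64 and -0.04 in placebo right 1 h and 2.40, 2.51 and 2.19 in TatNR2B9c right 1 h. Each TatNR2B9c value lay above each placebo value, as for 12.2% of all genes, NEFL and MAPT among them, and the means differed by 1.95 (SE 0.39, 95% confidence interval 1.14 to 2.76, limma adjusted p = 0.0162). On the left it read 0.11, 0.77 and 0.38 in placebo and 2.19, 3.21 and 2.42 in TatNR2B9c, without overlap, as for NEFL, NEFM, MAPT, MAP1B, STMN2 and 10.8% of all genes, a difference of 2.19 (SE 0.39, limma adjusted p = 0.00995). NEFL on the left read -0.02, 0.79 and 0.50 in placebo and 2.28, 2.13 and 1.68 in TatNR2B9c, a difference of 1.61 (SE 0.36, 95% confidence interval 0.84 to 2.37, limma adjusted p = 0.0426). As above, MAP2 had no measured reference in placebo at 1 h, and NEFL on the left had one on 1 of 3 arrays. On the right NEFL differed by 0.98 (SE 0.36, limma adjusted p = 0.223). The other NEFL probes gave 1.07 and 0.91 on the left, and neither passed. Of the further MAP1B probes, 1 passed on the right at 1.58 (limma adjusted p = 0.0443 over all kept probes), while the other gave 1.36 without a call. The reference signal of that passing probe was not well above background on any placebo 1 h array. On the left the further MAP1B probes gave 1.94 and 1.56, and neither passed.

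**Figure D4:**
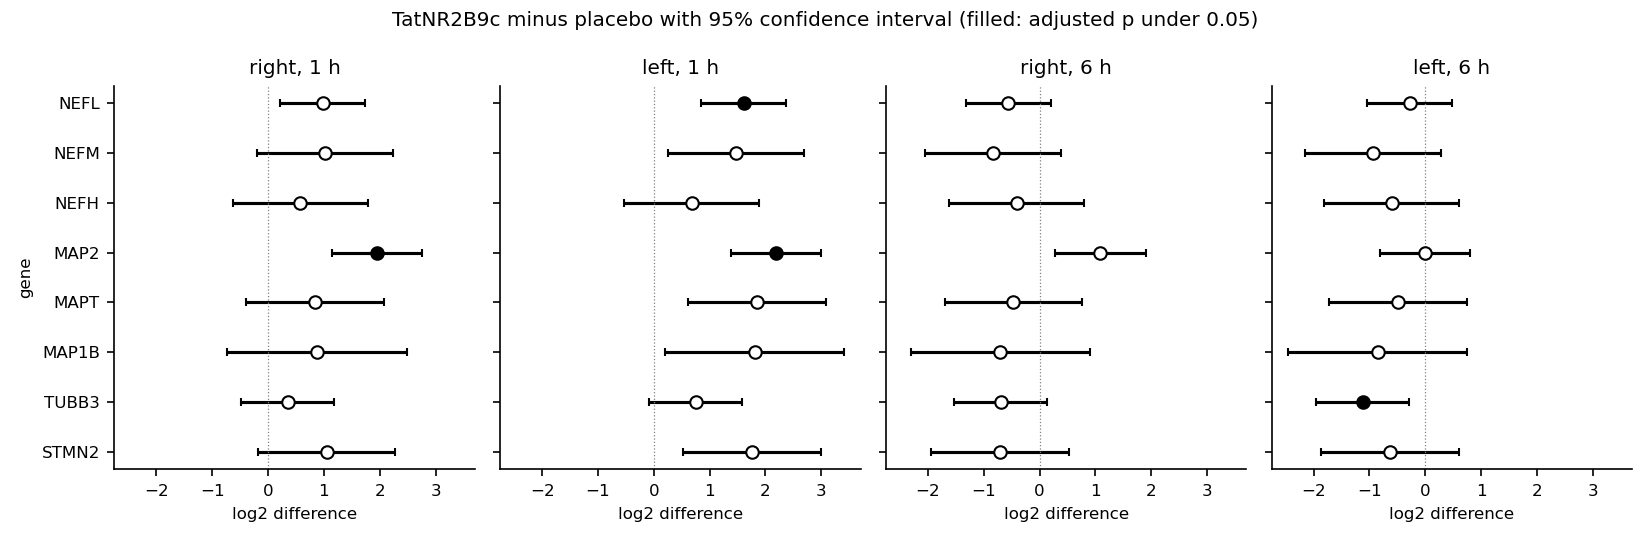
Log2 difference of TatNR2B9c minus placebo (x axis) with its 95% confidence interval for the 8 genes (y axis) at 1 h and 6 h on each side, with filled circles where the adjusted p is under 0.05. At 1 h all differences are above 0 with loess normalisation (6 and 7 of 8 are below 0 under median centring) and MAP2 (right and left) and NEFL (left) pass. At 6 h 7 of 8 genes on the right and 8 of 8 on the left are below 0 (equal spread turns 7 on each side), and TUBB3 passes on the left.

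These calls moved with the reference channel and with single arrays. Without the 3 arrays with a weak reference MAP2 was at 1.72 on the right (limma adjusted p = 0.0946) and 1.84 on the left (0.247), and NEFL at 1.24 on the left (0.515), so none passed. On the right the MAP2 call was also lost without placebo right 1 h replicate 3 alone, and without TatNR2B9c right 1 h replicate 1 or replicate 2, and on the left both calls were lost without placebo left 1 h replicate 1 or TatNR2B9c left 1 h replicate 2. The NEFL call alone was lost without placebo left 1 h replicate 3 or TatNR2B9c left 1 h replicate 1. In the scanner software's processed ratios MAP2 turned to -0.31 on the right and no gene of the 8 passed on either side.

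The channels taken alone showed how the genes differed among themselves. Each channel was quantile-normalised over all arrays, the weak-reference ones included, so these are not plain signals. In the tissue channel alone at 1 h on the right, MAP2 was higher with TatNR2B9c by 3.84, NEFL by 2.87 and MAPT by 2.34. The MAP1B probe used was lower, at -1.05, and all 4 genes passed in that channel, where 16.9% of all genes were called. On the left, where 21.5% were called, the same 4 genes passed, MAP2 at 3.70, NEFL at 2.73, MAPT at 1.60 and MAP1B at -1.87. The reference channel alone, with the same RNA on all arrays, differed in the same sense for MAP2 (1.75 and 1.32), NEFL (2.32 and 1.24) and MAP1B (-0.78 and -2.55). For MAPT it was 1.43 on the right and -0.11 on the left. The MAP2 reference values compare with a placebo signal that was not well above background on any array. Batch and treatment cannot be told apart here.

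**Figure D5:**
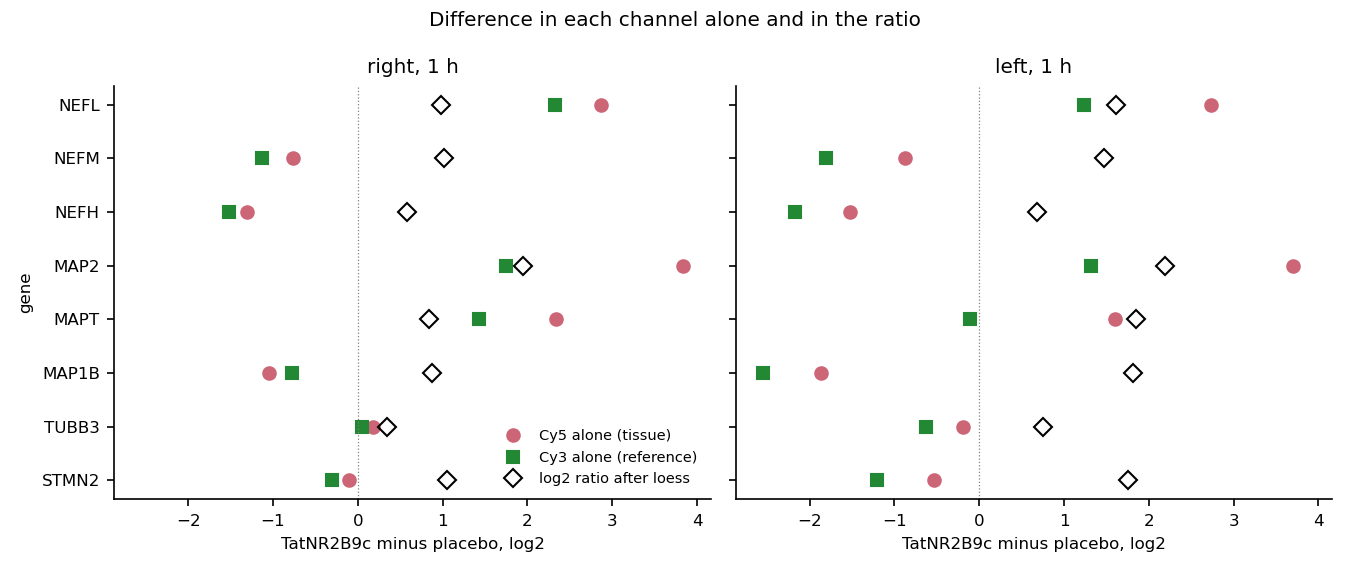
TatNR2B9c minus placebo at 1 h (x axis, log2) for the 8 genes (y axis), on the right and on the left, in the tissue channel alone (red circles), the reference channel alone (green squares) and the normalised ratio (open diamonds). The reference channel differs for MAP1B by -0.78 on the right and -2.55 on the left.

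At 6 h most of the 8 genes lay below 0 with loess normalisation, though scaling to equal spread turned the sign of 7 of 8 on each side (all but MAP2 on the right and all but TUBB3 on the left). On the right none passed, where 4.28% of all genes were called. There 7 genes were below 0, from -0.41 (NEFH) to -0.84 (NEFM), and MAP2 was above 0 at 1.09 (SE 0.39, 95% confidence interval 0.28 to 1.90, limma adjusted p = 0.115), though below 0 in the scanner software's processed ratios. On the left TUBB3 alone passed, where 24.3% of all genes were called and 13.6% as lower. TUBB3 read 2.90, 2.94 and 3.20 in placebo and 1.64, 2.68 and 1.35 in TatNR2B9c, with no overlap, as for 18.0% of all genes in that direction. It was lower by 1.12 on the log2 scale (-1.12, SE 0.40, 95% confidence interval -1.96 to -0.29, limma adjusted p = 0.0459), and MAP2 stood at -0.01 (SE 0.39). The dimmer TUBB3 probe gave -0.52 (limma adjusted p = 0.0674).

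That TUBB3 call was lost when any of placebo left 6 h replicates 1, 2 and 3 or TatNR2B9c left 6 h replicates 1 and 3 was left out, with values from -0.85 to -1.18. With the arrays scaled to equal spread it was -0.35 and did not pass. On the same arrays 0 of 12 oligodendrocyte markers were called higher and 3 lower, with a median of -1.15, and 5 of 19 neuronal markers were called lower, with a median of -0.72. Of 5 meningeal markers 3 were called higher, with a median of 1.25, and their mean ratio per array ran from -2.85 to -2.65 in placebo and from -2.0 to -0.87 in TatNR2B9c. Of 6 blood markers 2 were called higher and 5 lay above 0, with a median of 1.83. The part of these markers in the TUBB3 difference was not tested.

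The genes that work with these proteins were read from 7 lists of 81 measured genes in all. In placebo with loess 42 of the 81 were higher and 6 lower at 6 h on the right, where 21.3% of all genes were called higher, and 50 higher and 7 lower on the left, where 30.6% were. Under median centring these counts were 16 higher and 39 lower on the right and 17 and 43 on the left. As above, no share of all genes is given for this setting or for the one that follows. Leaving out the 3 arrays of weak reference gave 34 higher and 4 lower on the right and 33 and 5 on the left. With loess the other microtubule-associated proteins gave 10 of 16 genes higher at 6 h on the right and 12 on the left, with none lower. Among them MAP6, a cold-stable microtubule binder, rose by 2.41 and 2.88, MAP1A by 2.53 on the right and doublecortin (DCX) by 3.03 on the left. The list of other stathmins and collapsin response mediators, which also holds GAP43, BASP1 and MARCKS, gave 7 and 8 of 10. It was led on the right by STMN4 at 3.00 and on the left by BASP1 at 3.25. Of 6 tubulins 1 and 2 passed, among them the widely expressed TUBB at 1.53 and 1.44.

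Of 14 kinesin and dynein motor genes 9 were higher and 1 lower on each side, with KIF3C at 2.23 on the right, KIF3A at 2.63 on the left and the ubiquitous kinesin KIF5B lower, at -0.40 and -0.75. Among 16 kinases and severing enzymes 10 and 12 were higher and 1 lower, with CDK5R1, the activator of the tau kinase CDK5, at 2.68 and 3.13 and KATNA1, a microtubule-severing katanin, at -0.58 and -0.79. Of 10 genes of the axonal membrane skeleton 5 and 6 were higher and 1 lower, with beta-IV spectrin (SPTBN4) at 2.49 and 2.66. The list of other intermediate filaments had 0 and 1 higher and 3 and 4 lower of 9, with vimentin (VIM) at -1.47 and -1.81 and peripherin (PRPH) at -2.01 and -1.66. Peripherin is itself a filament of neurons, and the list also holds the nuclear lamins, so it is not a list of non-neuronal genes. These placebo comparisons carry the same batch limit as those of the 8 genes.

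In the treatment comparisons with loess 1 to 19 of the 81 passed, while at 1 h median centring gave 10 higher and 54 lower on the right and 9 and 57 on the left. Under median centring that was 79% and 81.5% of the 81, and the shares of all genes are given above with the 8 genes. At 1 h with loess GSK3B, a main tau kinase, was the only gene of the 81 called, higher with TatNR2B9c on each side. It differed by 1.00 (SE 0.19, limma adjusted p = 0.0138) on the right and 1.1 (SE 0.19, limma adjusted p = 0.00836) on the left. That was 1.23% of the 81 on each side, beside 1.59% (right) and 0.888% (left) of all genes. Without the weak-reference arrays 2 of the 81 were called higher on the right, and whether GSK3B was among them is not given. No share of all genes is given for that setting. On the left it leaves a lone placebo array, so calls are not given, and the median of the 81 went from 0.43 to 0.18. At 6 h on the left 4 of the 81 were higher and 15 lower (23.5%, beside 24.3% of all genes), with a median of -0.45 against -0.07 over all genes. The lower ones included DCLK2, a doublecortin-like kinase, at -1.51, MAP6D1 at -1.13, KIF3A at -2.34 and the adducin ADD2 at -1.60, and the higher ones VIM at 1.47, PRPH at 1.32, KIF5B at 0.70 and CLIP1 at 0.63. On the right at 6 h 2 were higher (PRPH at 1.51 and KIF5B at 0.70) and 2 lower (KIF3A at -2.03 and MAP6D1 at -0.84), 4.94% of the 81 beside 4.28% of all genes. In the right minus left mean over the 4 sets 0 of the 81 passed and 1 had an unadjusted p under 0.05.

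The 8 genes did not vary alike from array to array. Over the 24 arrays, as deviations from the group mean, the 28 pairs had a median Pearson r of 0.44, from -0.11 to 0.94. The arrays share their reference and their depth of signal, so these are descriptions. MAP1B and STMN2 (0.94), TUBB3 and STMN2 (0.92) and MAP1B and TUBB3 (0.90) were the closest, and NEFM and NEFH stood at 0.80. Without the weak-reference arrays, and the lone array then left in placebo left 1 h, these 4 values were 0.83, 0.81, 0.76 and 0.72 over 20 arrays. NEFH and MAP2 had an r of -0.01, and of -0.25 over the 20 arrays. MAPT was near 0 with MAP1B (0.05) over all arrays and at 0.51 over the 20.

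Outside the set the genes most like STMN2 were UCHL1 (0.99), a neuronal ubiquitin hydrolase, SEPT5 (0.97) and NGFRAP1 (0.96). MAP1B was most like CCK, SLC22A17 and DNM1 (each 0.97), and TUBB3 was most like ZDHHC22 (0.96), MAPK10 and SULT4A1 (each 0.94). MAP2 was closest to PEX5L and PHACTR1 (each 0.93) and HDHD2 (0.92), and NEFL to DELGEF, CHGA and FNDC4 (each 0.85). The medium chain NEFM was close to ATP1B1 (0.90) and KLC2 (0.87), and the heavy chain NEFH to ANGPT4 (0.81), ADMP (0.79) and the myelin gene CLDN11 (0.78). MAPT was closest to GNB3 (0.98), PHKA2 and LRFN4 (each 0.96), which includes the array with its value of -2.76.

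Alpha-internexin itself was named on the array in words, by a probe at chr9:102981597-102981656, which lies outside the symbol rule and was added after its values were seen. It read 0.81 ± 1.07 (SD, n = 3) in placebo left 1 h, 1.37 ± 1.31 in placebo right 1 h, 3.86 ± 0.07 in placebo left 6 h and 4.06 ± 0.23 in placebo right 6 h. In TatNR2B9c tissue it read 2.60 ± 0.31 and 2.68 ± 0.32 at 1 h, left and right, and 2.73 ± 0.61 and 3.24 ± 0.43 at 6 h. It was higher at 6 h than at 1 h in placebo by 3.04 on the left (limma adjusted p = 0.000113) and 2.69 on the right (limma adjusted p = 0.000577), and passed in no other comparison.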

How the data were processed

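RNA of 24 cortical samples was measured on 24 Agilent 2-colour arrays. Per the file headers, the authors extracted each deposited intensity with Agilent Feature Extraction 9.5.3.1, 10.5.1.1 or 10.7.3.1, and the submitters' processing notes name 10.7.3.1. Intensities are unnormalised means and local backgrounds, and the deposited log10 ratios are processed Cy5 over Cy3, per the file headers. Deposited spot flags (0 or 1, other columns) mark spots well above background. The series matrix holds the same log10 ratios (within 0.005), with medians of 0 to 0.175 per array. No dyes were swapped, so dye bias was not tested.

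With limma 3.58.1 in R 4.3.3, intensities were background-corrected by normexp (offset 50), turned to log2 ratios by loess within arrays, and averaged over spots of a probe. Non-uniform and control spots were left out. For the channels taken alone the background-corrected log2 intensities were quantile-normalised over all arrays in place of loess. The filter kept probes that the Cy5 flags marked as above background in all 3 arrays of some group, and the brightest kept probe read a gene. One model with a mean for each of the 8 groups was fitted to 15761 genes and 24 arrays, and p-values were adjusted by Benjamini-Hochberg within each of 15 comparisons. The procedure was tested on simulated data. Array number limits precision.

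Right and left samples with the same number were taken as 1 animal. Their deviations from the group mean correlated from -0.71 to 0.69, and 6 of 12 pairs were over 0.1. Members and lists were chosen with earlier results of these data known. All matched genes were named, and from each list at most 2 genes per direction with the largest differences past the threshold; the 3 genes most like each were taken by Pearson r, of which 1 is not reported here. Alternatives were other backgrounds, scalings, filters, probes, blocks, weights and array subsets.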

Additional observations from a re-analysis of the deposited data

How the results depend on the processing

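The number of the 8 genes past the threshold was recomputed under 41 alternatives, 24 of which left out 1 array. It stayed within 1.5 times the first count in 294 of 337 cases, which compares counts and not which genes passed or in which direction. Cases of 0 against 0 are among the 294, and the series matrix and the processed signals, which hold the same ratios, both count as alternatives. The number was 0 under each alternative tried in the right-left comparisons, the interactions and the left TatNR2B9c time comparison, where limma called 0% of all genes with the first settings. With the replicate block (animal) it was 0 in the 7 comparisons that allow it, and the block changed no call.

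TatNR2B9c against placebo on the right at 1 h (1 gene) gave 0 from processed signals, the series matrix and without the weak-reference arrays, 6 under median centring, 4 in Cy5 alone and 2 with array weights. On the left at 1 h (2 genes) it gave 0 from processed signals, the series matrix, only the groups compared and without the weak-reference arrays, 5 under median centring and equal spread, 4 in Cy5 alone, and 1 with no filter, the mean of probes or scan day as a random block. On the right at 6 h Cy5 alone gave 2. On the left at 6 h (1 gene) it gave 0 from processed signals, the series matrix, equal spread, the filter on all 24 arrays, only the groups compared and scan day as a random block, and 3 under median centring and Cy5 alone. For placebo at 6 h against 1 h on the right (8 genes) median centring and Cy5 alone gave 3 and equal spread 2, and on the left Cy5 alone gave 1. TatNR2B9c time on the right gave 3 with array weights. Leaving out 1 array gave 0 to 1, 0 to 3 and 0 to 1 genes in the treatment comparisons right 1 h, left 1 h and left 6 h, 7 to 8 in placebo time right and 0 to 1 in TatNR2B9c time right. Apart from shares given above, the share of all genes called is not given beside these counts, so they are descriptions.

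For genes that passed with the first settings or under the alternative, signs turned as follows. For treatment on the right at 1 h, MAP2 was -0.31 from processed signals and -0.30 from the series matrix; under median centring NEFM was -2.41, NEFH -2.48, MAP1B -3.26, TUBB3 -2.47 and STMN2 -2.77, and in Cy5 alone MAP1B was -1.05. On the left at 1 h median centring gave NEFL -0.82, NEFM -3.01, NEFH -3.33, MAP1B -3.36, TUBB3 -3.15 and STMN2 -3.25, and Cy5 alone MAP1B -1.87. On the left at 6 h Cy5 alone gave MAP2 2.46. For placebo time, median centring gave NEFM -0.74, NEFH -0.96, MAP1B -1.23, TUBB3 -1.06 and STMN2 -1.03 on the right and -1.09, -1.59, -1.56, -1.59 and -1.64 on the left, and Cy5 alone gave NEFM -0.12 and MAP1B -0.11 on the right and MAP1B -0.35 on the left. Of 2265 values that passed in neither, 239 had the other sign. The cause was not tested. Over all genes median centring shifted the median by -0.78 and -0.97 in the 1 h treatment comparisons. The equal-spread scaling divides by the SD over kept probes, a measure chosen after a median-based one gave unstable values. Precision is limited by 3 arrays per group, and by the reference channel, in which the probes of the 8 genes were well above background on 18 to 24 arrays.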
